A study of Mus musculus with 9 samples.

Results

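The 8 genes described here make, bind, cross-link or degrade hyaluronan in mouse heart cells. They are the hyaluronan synthases Has1 and Has2, the hyaluronan-binding proteins Tnfaip6, Cd44, Vcan and Hapln1, the pentraxin Ptx3 and the hyaluronidase Hyal2. Each was taken from the probes annotated to that gene alone, and of several such probes the one with the highest average RMA value was to be kept. All 8 were found, each with 1 such probe, among 19933 genes on the Affymetrix mouse Gene 1.0 ST array. The 9 arrays came from 3 preparations with 3 biological replicates each. These were adult cardiac fibroblasts, embryonic cardiac fibroblasts, and embryonic cardiomyocytes sorted by an Nkx-YFP reporter, a fluorescent mark tied to a cardiac lineage gene. The series set out to find fibroblast factors that make myocytes divide. No treatment or allele other than the reporter is named. The strain, the embryonic stage, the adult age, the sex, any culture of the cells and any pooling of animals are given neither in the labels nor in the series text.

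Hyaluronan is a long sugar polymer without a protein core. It is spun out through the plasma membrane by the synthases from the activated sugars UDP-glucuronic acid and UDP-N-acetylglucosamine. In the embryonic heart it swells the cardiac jelly between myocardium and endocardium, and mouse embryos without Has2 form no endocardial cushions. Versican, the product of Vcan, is a large proteoglycan that binds hyaluronan at one end, and the link protein encoded by Hapln1 locks the pair together. Tnfaip6, also called TSG-6, moves heavy chains of inter-alpha-inhibitor onto hyaluronan, and the long pentraxin Ptx3 helps to cross-link such chains. Both were first known as genes that inflammatory cytokines switch on. Cd44 is the main cell-surface receptor for hyaluronan, and Hyal2 cuts the long polymer into fragments.

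Promoter sequences of 7 of the 8 genes, Has2 not among them, were taken from RefSeq (GRCm38.p6). Shown are those of the cytokine-inducible Tnfaip6 and Ptx3, which of the 8 genes differed most between either fibroblast preparation and the cardiomyocytes. Those of Hapln1 and Vcan, which are neighbours on chromosome 13 but had different patterns, are shown too. Each runs 5′ to 3′ along the strand of the gene, from 250 bases before to 30 bases after the annotated start. Capitals mark matches, on either strand, to 4 motifs searched in the full windows of 300 bases. These were AP-1 (TGANTCA), kappa B (GGG, any 2 bases, TT, any base, CC), the TATA box (TATAAA) and the GC box (GGGCGG). No marked matches overlap in the printed sequences.
Tnfaip6, GRCm38.p6 chr2:52037863-52038142, plus strand: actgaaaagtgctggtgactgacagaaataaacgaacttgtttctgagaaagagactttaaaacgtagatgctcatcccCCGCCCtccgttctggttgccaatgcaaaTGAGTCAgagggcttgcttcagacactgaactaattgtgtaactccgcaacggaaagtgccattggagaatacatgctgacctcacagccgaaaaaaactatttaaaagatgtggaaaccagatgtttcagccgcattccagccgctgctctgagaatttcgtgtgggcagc
Ptx3, GRCm38.p6 chr3:66219637-66219916, plus strand: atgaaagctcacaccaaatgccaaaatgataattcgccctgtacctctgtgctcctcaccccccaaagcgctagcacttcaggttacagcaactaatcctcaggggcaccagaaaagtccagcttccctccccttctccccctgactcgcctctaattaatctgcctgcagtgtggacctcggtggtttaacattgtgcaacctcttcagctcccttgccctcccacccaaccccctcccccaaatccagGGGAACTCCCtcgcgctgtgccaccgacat
Hapln1, GRCm38.p6 chr13:89540386-89540665, plus strand: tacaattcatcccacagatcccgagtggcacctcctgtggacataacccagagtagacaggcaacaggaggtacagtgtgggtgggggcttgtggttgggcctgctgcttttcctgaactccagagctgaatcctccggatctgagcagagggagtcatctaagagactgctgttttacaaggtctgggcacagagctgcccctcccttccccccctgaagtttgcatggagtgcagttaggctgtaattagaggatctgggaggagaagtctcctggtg
Vcan, GRCm38.p6 chr13:89742483-89742762, minus strand: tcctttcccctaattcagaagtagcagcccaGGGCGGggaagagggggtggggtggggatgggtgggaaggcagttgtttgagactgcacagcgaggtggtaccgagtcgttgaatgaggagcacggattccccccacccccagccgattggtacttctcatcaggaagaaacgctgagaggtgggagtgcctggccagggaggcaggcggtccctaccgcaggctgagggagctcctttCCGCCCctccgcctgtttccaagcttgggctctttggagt
Tnfaip6 held 1 AP-1 and 1 GC box match, Ptx3 held 1 kappa B match at its start, Vcan held 2 GC boxes, and Hapln1 had no match. Of the genes not printed, Hyal2 held 1 kappa B match and 1 GC box, Cd44 held 1 GC box, and Has1 had none. Among 32851 promoter windows of the same length, 7.81% held the AP-1 motif, 4.79% the kappa B motif, 13.6% the TATA box and 35.7% the GC box. These matches describe letters in the windows and say nothing of factor binding.

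Values are RMA summaries on the log2 scale, and a difference of 1 unit is a 2-fold difference between unlogged values. Differences were tested with limma over the whole table, and a call needs a Benjamini-Hochberg adjusted p under 0.05. In embryonic fibroblasts against cardiomyocytes 6 of the 8 genes were called higher, where 10.3% of all genes were, and 0 were called lower, where 11.1% of all genes were. In adult against embryonic fibroblasts 5 of 8 were higher, against 8.34% of all genes, and 1 of 8 was lower, against 11.2%. In adult fibroblasts against cardiomyocytes 5 of 8 were higher, against 17.4% of all genes, and 1 of 8 was lower, against 18.2%. Counted in either direction, 6 of 8 were called in each comparison, against 21.4% of all genes in embryonic fibroblasts against cardiomyocytes, 19.5% in adult against embryonic fibroblasts and 35.6% in adult fibroblasts against cardiomyocytes. In the same order of comparisons, the median difference of the 8 genes was 1.13, 1.00 and 2.01 log2 units, and that of all genes was -0.0003, 0.04 and 0.06. Every call of a member also had groups whose arrays did not overlap. Over all genes, the groups lay apart in the upward direction for 19.3%, 16.9% and 24.2% and in the downward direction for 19.8%, 16.1% and 21.7%. Each count of 0 given here for one direction of a list was also 0 by limma at an unadjusted p under 0.05.

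**Figure D1:**
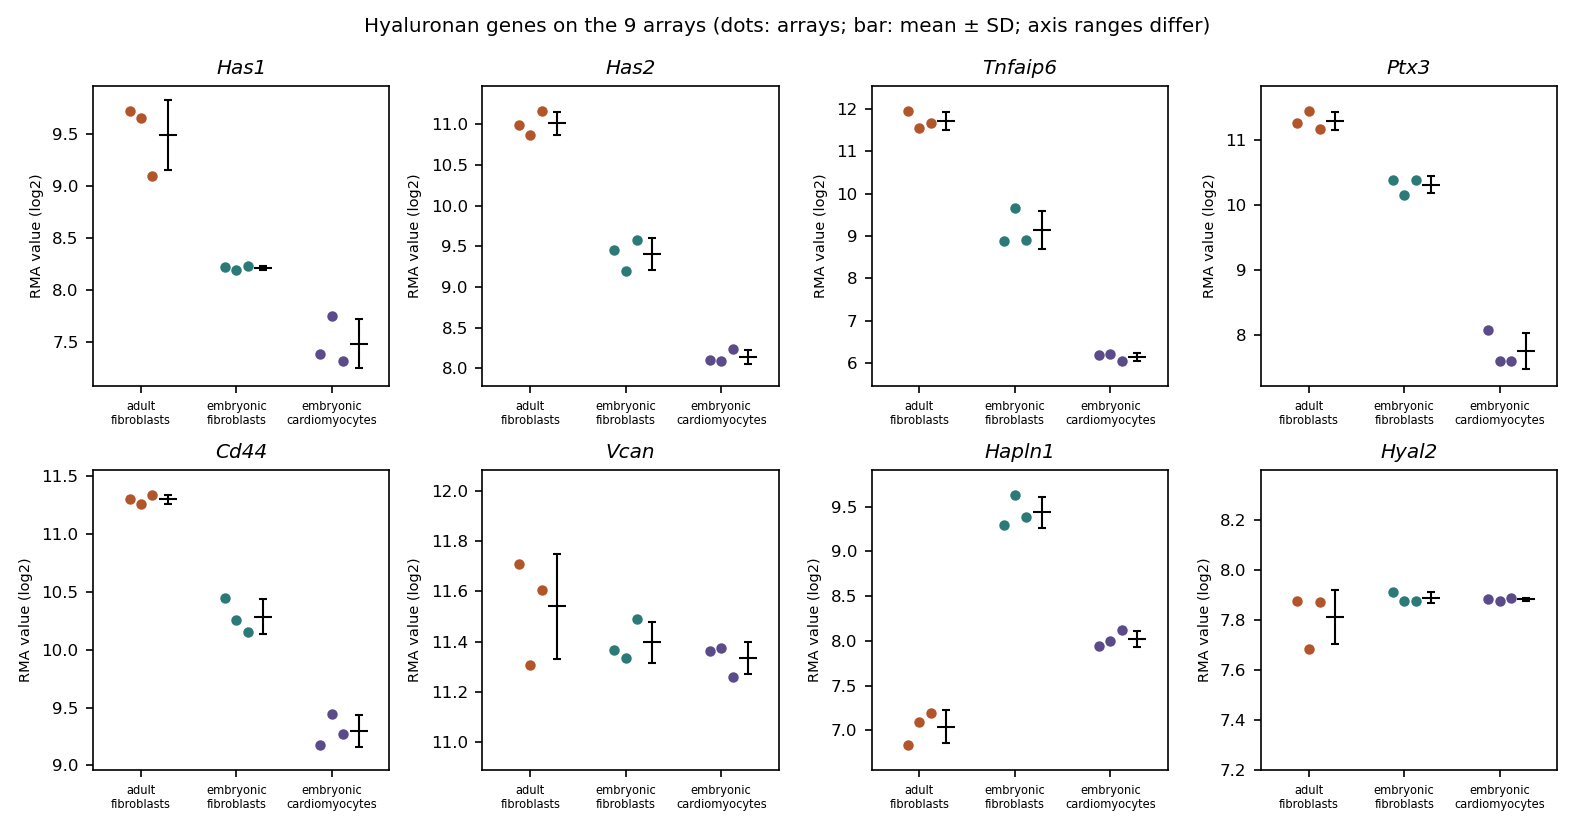
RMA values (log2, y axis) of the 8 hyaluronan genes on the 9 arrays, by group; dots are arrays and bars the mean ± SD of 3. Has1, Has2, Tnfaip6, Ptx3 and Cd44 were highest in adult fibroblasts and lowest in cardiomyocytes, Hapln1 was highest in embryonic fibroblasts, and the groups overlapped in Vcan and Hyal2.

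The preparations matched their labels only in part. The mean RMA value of 12 cardiomyocyte markers was 7.84 to 8.18 on the adult fibroblast arrays, 10.77 to 11.39 on the embryonic fibroblast arrays and 12.15 to 12.24 on the cardiomyocyte arrays. Of the 12, 8 were called lower in embryonic fibroblasts than in cardiomyocytes, against 11.1% of all genes. Tnnt2, Actc1, Myl2 and Nkx2-5 were not called there. Myh6, the alpha myosin heavy chain of heart muscle, stood at 6.99 ± 0.24 in adult fibroblasts, 9.61 ± 0.26 in embryonic fibroblasts and 10.96 ± 0.06 in cardiomyocytes (SD, n = 3 each). Nkx2-5, a cardiac transcription factor gene, was called in no comparison, at 8.23 ± 0.15 in adult fibroblasts, 8.25 ± 0.08 in embryonic fibroblasts and 8.30 ± 0.13 in cardiomyocytes, so its probe set does not separate the preparations. The mean of 12 fibroblast markers was 10.66 to 10.89 in adult fibroblasts, 9.80 to 10.09 in embryonic fibroblasts and 8.415 to 8.67 in cardiomyocytes. The embryonic fibroblast arrays thus stood nearer to the cardiomyocytes than to the adult fibroblasts in muscle markers. In such bulk samples fewer cells of a type and less RNA per cell cannot be told apart. Y-linked Eif2s3y was 4.67 to 5.10 in adult fibroblasts, 8.43 to 8.53 in embryonic fibroblasts and 8.51 to 9.33 in cardiomyocytes. Xist, the X-linked RNA of female cells, was high in all groups. It was 11.54 to 11.92 in adult fibroblasts, 10.84 to 11.04 in embryonic fibroblasts and 10.49 to 11.16 in cardiomyocytes. The embryonic arrays thus held both Xist and Y-linked RNA, and whether they mixed sexes was not tested. Sex make-up and age cannot be told apart between the fibroblasts. Adult replicate 3 correlated least with its own group (mean Pearson r 0.970 over all probes, against 0.981 to 0.994 for the other 8 arrays). Without it, the calls of all 8 members were as before in every comparison.

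Both synthases followed the same order, highest in adult fibroblasts and lowest in cardiomyocytes. Has2, the synthase that supplies most hyaluronan in the embryo, measured 10.99, 10.87 and 11.16 in adult fibroblasts, 9.46, 9.19 and 9.58 in embryonic fibroblasts, and 8.10, 8.09 and 8.24 in cardiomyocytes. The 3 groups were fully separate, with the spread inside each far below the steps between them. Has2 was 3.03-fold higher in adult than in embryonic fibroblasts (log2 difference 1.60 ± 0.12, SE, adjusted p = 1.8e-05). It was 2.40-fold higher in embryonic fibroblasts than in cardiomyocytes (1.26 ± 0.12, adjusted p = 0.000159). Between adult fibroblasts and cardiomyocytes the gap was 7.28-fold.

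Has1, which makes hyaluronan at a slower rate than Has2 in cell assays, measured 9.73, 9.66 and 9.10 in adult fibroblasts, 8.22, 8.19 and 8.23 in embryonic fibroblasts, and 7.39, 7.75 and 7.31 in cardiomyocytes. The groups did not overlap, although adult replicate 3 and cardiomyocyte replicate 2 lay nearer to the embryonic fibroblasts than the other arrays of their groups. It was 2.43-fold higher in adult than in embryonic fibroblasts (1.28 ± 0.17, adjusted p = 0.00066) and 4.03-fold higher in adult fibroblasts than in cardiomyocytes (2.01 ± 0.17, adjusted p = 1.33e-05). The rise of Has1 in embryonic fibroblasts over cardiomyocytes was the smallest called difference among the members, 1.66-fold (0.73 ± 0.17, adjusted p = 0.013). That call was lost without cardiomyocyte replicate 1 (0.68, adjusted p = 0.0545) and without cardiomyocyte replicate 3 (0.65, adjusted p = 0.0517). The third synthase of the mouse, Has3, passed in no comparison. Its difference was 0.34 log2 units between adult fibroblasts and cardiomyocytes (95% interval 0.034 to 0.65, adjusted p = 0.0826), whose arrays did not overlap. It was 0.08 between adult and embryonic fibroblasts (adjusted p = 0.725) and 0.26 between embryonic fibroblasts and cardiomyocytes (adjusted p = 0.241), with overlapping arrays in both.

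The products of Tnfaip6 and Ptx3 build hyaluronan into a cross-linked coat, and these genes had the largest differences of the 8 between embryonic fibroblasts and cardiomyocytes and between adult fibroblasts and cardiomyocytes. Tnfaip6 measured 11.95, 11.53 and 11.65 in adult fibroblasts, 8.88, 9.66 and 8.89 in embryonic fibroblasts, and 6.19, 6.22 and 6.04 in cardiomyocytes. Each group stood more than 1.5 log2 units clear of the next, and embryonic fibroblast replicate 2 was the high array of its group. Tnfaip6 was 47.2-fold higher in adult fibroblasts than in cardiomyocytes (5.56 ± 0.20, adjusted p = 1.92e-07), rank 4 among the increases of all 19933 genes in that comparison. In embryonic fibroblasts against cardiomyocytes it was 7.98-fold higher (2.996 ± 0.20, adjusted p = 4.8e-05), rank 9 of all increases. In adult against embryonic fibroblasts it was 5.92-fold higher (2.57 ± 0.20, adjusted p = 2.96e-05). Its SD over all 9 arrays, 2.42, lay at the 99.94th percentile of all genes, where the median SD was 0.19.

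Ptx3 measured 11.26, 11.44 and 11.17 in adult fibroblasts, 10.39, 10.16 and 10.38 in embryonic fibroblasts, and 8.07, 7.59 and 7.59 in cardiomyocytes. The 3 groups were separate, and cardiomyocyte replicate 1 was the high array of its group. Ptx3 was 5.88-fold higher in embryonic fibroblasts than in cardiomyocytes (2.56 ± 0.14, adjusted p = 2.37e-05) and 1.98-fold higher in adult than in embryonic fibroblasts (0.98 ± 0.14, adjusted p = 0.00105).

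Cd44, the receptor, measured 11.30, 11.26 and 11.34 in adult fibroblasts, 10.45, 10.26 and 10.15 in embryonic fibroblasts, and 9.17, 9.44 and 9.27 in cardiomyocytes. The groups did not overlap, and the adult arrays lay close together, with an SD of 0.04. Cd44 was 2.02-fold higher in adult than in embryonic fibroblasts (1.01 ± 0.10, adjusted p = 0.000114), 1.98-fold higher in embryonic fibroblasts than in cardiomyocytes (0.99 ± 0.10, adjusted p = 0.000241) and 4.01-fold higher in adult fibroblasts than in cardiomyocytes. The ezrin, radixin and moesin proteins and merlin tie the tail of Cd44 to actin. Of their 4 genes (Ezr, Rdx, Msn, Nf2) none was called between the fibroblasts, where 19.5% of all genes were called. None was called between the embryonic groups either, against 21.4% of all genes. With 4 genes, these counts are near what those shares give. By limma at an unadjusted p under 0.05 the counts were 0 between the fibroblasts and 3 between the embryonic groups. In adult fibroblasts against cardiomyocytes Nf2 alone was called, and it was lower (-0.61 ± 0.18, adjusted p = 0.0217), where 35.6% of all genes were called.

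Hapln1 was the member that ran the other way between the fibroblasts. It measured 6.84, 7.09 and 7.20 in adult fibroblasts, 9.29, 9.63 and 9.38 in embryonic fibroblasts, and 7.95, 7.997 and 8.12 in cardiomyocytes. The 3 groups were separate, with embryonic fibroblasts on top and adult fibroblasts at the bottom. Hapln1 was 5.26-fold lower in adult than in embryonic fibroblasts (-2.40 ± 0.12, adjusted p = 2.28e-06), rank 100 among the decreases of all genes. It was 2.66-fold higher in embryonic fibroblasts than in cardiomyocytes (1.41 ± 0.12, adjusted p = 9.76e-05) and 1.98-fold lower in adult fibroblasts than in cardiomyocytes (-0.98 ± 0.12, adjusted p = 0.000145).

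Vcan, the partner that Hapln1 locks onto hyaluronan, measured 11.71, 11.31 and 11.60 in adult fibroblasts, 11.37, 11.33 and 11.49 in embryonic fibroblasts, and 11.36, 11.38 and 11.26 in cardiomyocytes. The groups overlapped, and adult replicate 2 was the low array of its group. Vcan passed in no comparison, with a difference of 0.14 between adult and embryonic fibroblasts (95% interval -0.10 to 0.39, adjusted p = 0.411) and of 0.064 between embryonic fibroblasts and cardiomyocytes (-0.18 to 0.31, adjusted p = 0.772). Between adult fibroblasts and cardiomyocytes it was 0.21 (-0.036 to 0.45, adjusted p = 0.176), which was called without adult replicate 2 (0.32, adjusted p = 0.0229). A single probe set summarises Vcan, so splice forms of versican were not measured apart. On the far side of Hapln1 from Vcan lies Edil3, an integrin-binding matrix protein gene. Edil3 was called in the same directions as Hapln1, with -1.22 in adult against embryonic fibroblasts and 0.78 in embryonic fibroblasts against cardiomyocytes. Other nearby genes did not share these calls. Xrcc4 was lower in embryonic fibroblasts than in cardiomyocytes (-1.04) and had no call between the fibroblasts, and Rasa1 and Tmem167 were called in no comparison. Edil3 was looked up after the values of its neighbours were seen.

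Hyal2 measured 7.88, 7.69 and 7.87 in adult fibroblasts, 7.91, 7.88 and 7.88 in embryonic fibroblasts, and 7.88, 7.88 and 7.89 in cardiomyocytes. Its arrays spanned 0.23 log2 units in all, and adult replicate 2 was the lowest. The difference was -0.077 between adult and embryonic fibroblasts (95% interval -0.25 to 0.091, adjusted p = 0.524) and 0.006 between embryonic fibroblasts and cardiomyocytes (-0.16 to 0.17, adjusted p = 0.975). Between adult fibroblasts and cardiomyocytes it was -0.071 (-0.24 to 0.097, adjusted p = 0.505). The same value, 7.876, was deposited for 4 of the 9 arrays, as happened with some value for 9.78% of all probes. Whether this probe set responds to the transcript was not tested, so equal Hyal2 RNA in the preparations is not shown.

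**Figure D2:**
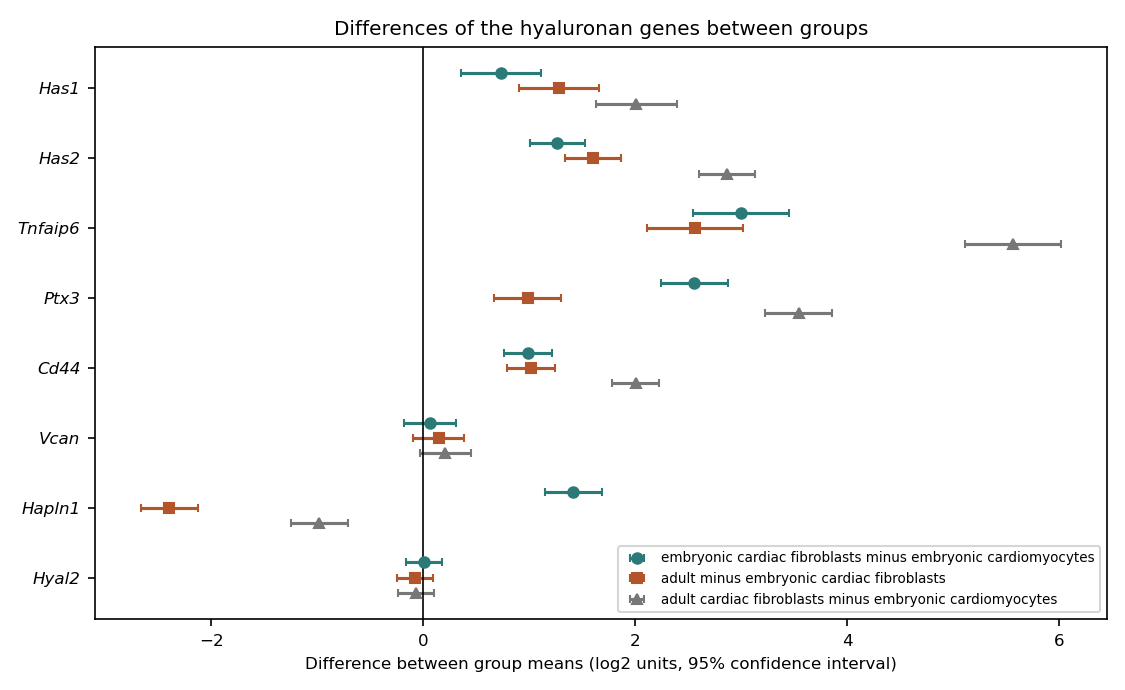
Differences between group means (log2 units, x axis) of the 8 genes in the 3 comparisons, with 95% confidence intervals from limma. Tnfaip6 showed the largest differences, up to 5.56 between adult fibroblasts and cardiomyocytes, Hapln1 lay on opposite sides of 0 in the fibroblast and embryonic comparisons, and all intervals of Vcan and Hyal2 included 0.

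Most genes that supply the sugars for hyaluronan were called higher in the comparisons in which Has1 and Has2 were. The list held Has3 and 7 genes of precursor synthesis. Of these 8, 5 were higher and 0 lower in adult than in embryonic fibroblasts, 5 were higher and 0 lower in embryonic fibroblasts than in cardiomyocytes, and 6 were higher and 0 lower in adult fibroblasts than in cardiomyocytes. The shares called higher over all genes in these comparisons were 8.34%, 10.3% and 17.4%. The median differences of the list were 0.81, 0.62 and 1.26 log2 units. Gfpt2, an isoform of the enzyme that opens the hexosamine pathway, measured 12.78, 12.67 and 12.54 in adult fibroblasts, 10.47, 10.37 and 9.90 in embryonic fibroblasts, and 8.39, 7.999 and 7.85 in cardiomyocytes. It differed by 2.41 ± 0.18 log2 units between adult and embryonic fibroblasts (adjusted p = 1.82e-05) and by 2.17 ± 0.18 between embryonic fibroblasts and cardiomyocytes (adjusted p = 8.15e-05). Gfpt1, the gene of the other isoform, was not called between the fibroblasts (0.059 ± 0.10, adjusted p = 0.719). It was higher in embryonic fibroblasts than in cardiomyocytes (0.72 ± 0.10, adjusted p = 0.000825). Ugdh, which makes UDP-glucuronic acid, averaged 12.36 ± 0.16 in adult fibroblasts, 10.72 ± 0.28 in embryonic fibroblasts and 9.47 ± 0.22 in cardiomyocytes (SD, n = 3 each), and was called in every comparison. Uap1, which makes UDP-N-acetylglucosamine, averaged 11.61 ± 0.23 in adult fibroblasts, 9.77 ± 0.05 in embryonic fibroblasts and 9.26 ± 0.05 in cardiomyocytes. It rose by 1.84 ± 0.11 in adult over embryonic fibroblasts (adjusted p = 5.27e-06) and by 0.51 ± 0.11 in embryonic fibroblasts over cardiomyocytes (adjusted p = 0.00874). Gnpnat1, an enzyme between Gfpt2 and Uap1 in that pathway, was higher in adult than in embryonic fibroblasts (1.06 ± 0.11), and its difference between the embryonic groups was 0.058 (adjusted p = 0.795). Ugp2, which makes UDP-glucose, passed in no comparison. These sugars also serve protein glycosylation and other glycosaminoglycans.

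**Figure D3:**
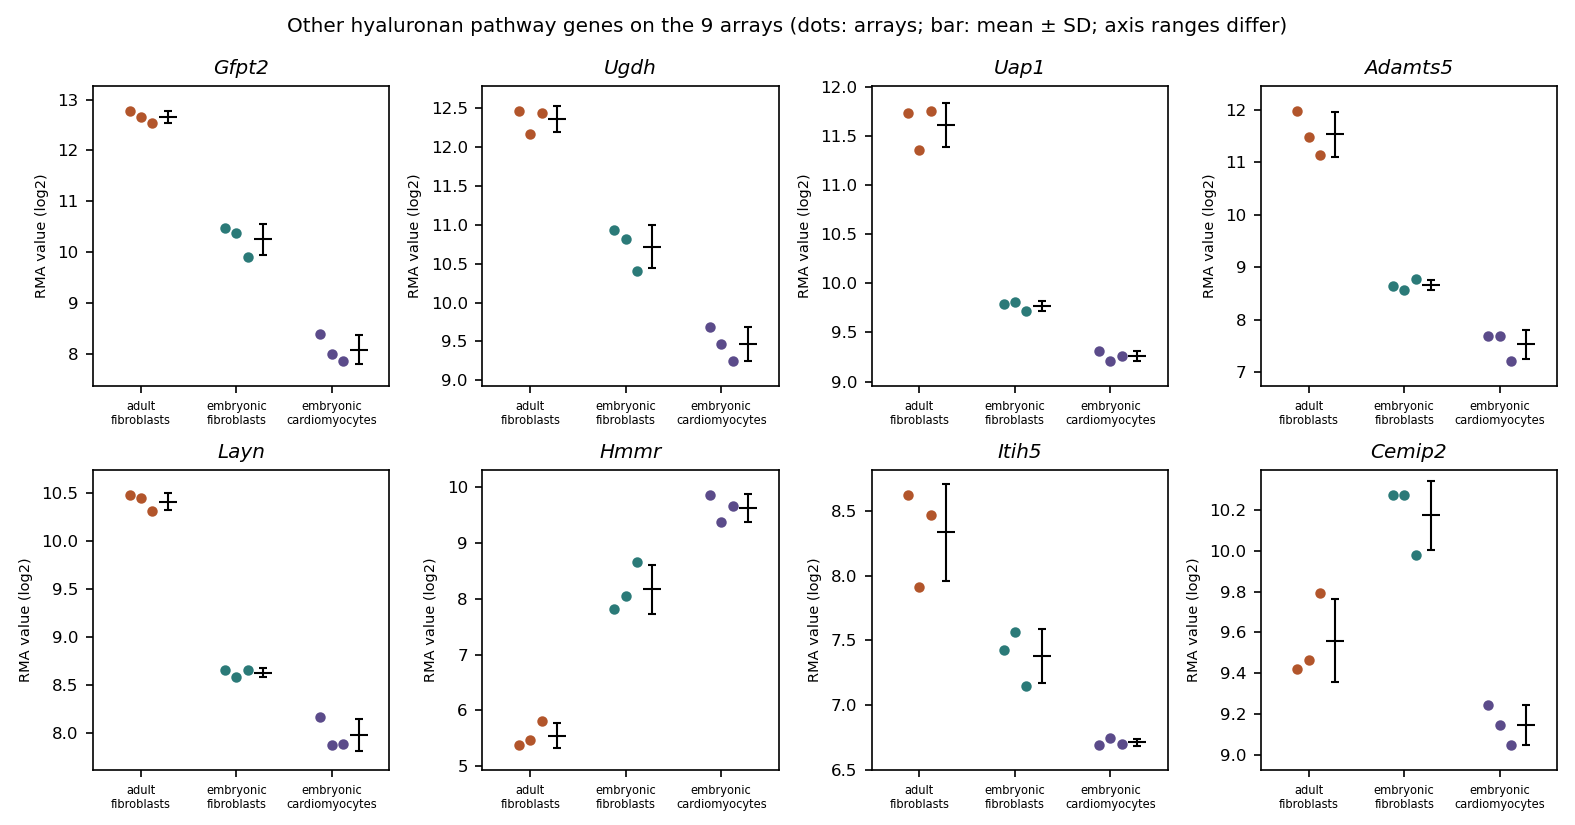
RMA values (log2, y axis) of 8 other hyaluronan pathway genes on the 9 arrays, by group; dots are arrays and bars the mean ± SD of 3. Gfpt2, Ugdh, Uap1, Adamts5, Layn and Itih5 were highest in adult fibroblasts, Hmmr was highest in cardiomyocytes and Cemip2 in embryonic fibroblasts.

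Of 9 degrading enzyme genes other than Hyal2, 0 were higher and 3 lower in adult than in embryonic fibroblasts, where 8.34% of all genes were higher and 11.2% lower. In embryonic fibroblasts against cardiomyocytes 2 were higher and 0 lower, against 10.3% and 11.1% of all genes. In adult fibroblasts against cardiomyocytes 1 was higher and 1 lower, against 17.4% and 18.2%. With 9 genes, several of these counts are near what those shares give. Cemip2, a cell-surface protein reported to degrade hyaluronan, averaged 9.56 ± 0.20 in adult fibroblasts, 10.17 ± 0.17 in embryonic fibroblasts and 9.15 ± 0.10 in cardiomyocytes. Like Hapln1, it was lower in adult than in embryonic fibroblasts (-0.62 ± 0.12, adjusted p = 0.00667) and higher in embryonic fibroblasts than in cardiomyocytes (1.03 ± 0.12, adjusted p = 0.000505). Unlike Hapln1, it was higher in adult fibroblasts than in cardiomyocytes (0.41 ± 0.12, adjusted p = 0.0265). Cemip, needed for hyaluronan breakdown in skin fibroblasts, was also lower in adult than in embryonic fibroblasts (-0.39 ± 0.10, adjusted p = 0.0194), as was the lysosomal glucuronidase gene Gusb (-0.83 ± 0.15, adjusted p = 0.00385). Hyal3, which lies close to Hyal2 on chromosome 9, passed in no comparison. Hyal1 was not analysed here.

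Of 13 other hyaluronan-binding genes, 1 was higher and 3 lower in adult than in embryonic fibroblasts, against 8.34% and 11.2% of all genes. In embryonic fibroblasts against cardiomyocytes 3 were higher and 2 lower, against 10.3% and 11.1%, and in adult fibroblasts against cardiomyocytes 2 were higher and 2 lower, against 17.4% and 18.2%. Several of these counts are near the shares over all genes. Layn, the membrane receptor layilin, averaged 10.41 ± 0.09 in adult fibroblasts, 8.63 ± 0.04 in embryonic fibroblasts and 7.98 ± 0.16 in cardiomyocytes. It rose by 1.78 ± 0.10 in adult over embryonic fibroblasts (adjusted p = 3.07e-06). Lyve1, a Cd44 relative of lymphatic endothelium and some macrophages, was higher in embryonic fibroblasts than in cardiomyocytes (0.91 ± 0.12, adjusted p = 0.000707), as was the scavenger receptor gene Stab1 (0.69 ± 0.12, adjusted p = 0.0032). Hmmr, whose product binds hyaluronan and also works at the mitotic spindle, fell to 5.55 ± 0.23 in adult fibroblasts, against 8.18 ± 0.44 in embryonic fibroblasts (-2.63 ± 0.22, adjusted p = 4.26e-05). Habp4, named for binding hyaluronan, was lower in adult than in embryonic fibroblasts (-1.04 ± 0.14). The other lecticans, Acan, Bcan and Ncan, and the other link proteins, Hapln2, Hapln3 and Hapln4, passed in no comparison.

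Inter-alpha-inhibitor donates the chains that Tnfaip6 moves onto hyaluronan. For its wider gene family 6 genes were listed. Of these, 2 were higher and 0 lower in adult than in embryonic fibroblasts, against 8.34% and 11.2% of all genes. They were Itih2 (1.05 ± 0.13, adjusted p = 0.000359) and Itih5 (0.95 ± 0.18, adjusted p = 0.00416), while Itih1, Itih3, Itih4 and Ambp had no call there. The list is of a family, so these calls do not show a rise of inter-alpha-inhibitor itself. Itih5 alone was called between embryonic fibroblasts and cardiomyocytes (higher, 0.67 ± 0.18, adjusted p = 0.0236), where 10.3% of all genes were called higher. Adamts proteases of the family that cleaves versican included called genes in every comparison, where Vcan had no call. Of 7, 3 were higher and 0 lower in adult than in embryonic fibroblasts, against 8.34% and 11.2% of all genes, and 2 were higher and 1 lower in embryonic fibroblasts than in cardiomyocytes, against 10.3% and 11.1%. In adult fibroblasts against cardiomyocytes 4 were higher and 1 lower, against 17.4% and 18.2%. Adamts5 measured 11.97, 11.47 and 11.14 in adult fibroblasts, 8.65, 8.57 and 8.77 in embryonic fibroblasts, and 7.70, 7.68 and 7.21 in cardiomyocytes. Its rise in adult over embryonic fibroblasts, 2.87 ± 0.21 (adjusted p = 1.67e-05), exceeded that of any member of the 8 genes. Adamts4 (1.28 ± 0.17) and Adamts1 (0.94 ± 0.11) were higher in adult fibroblasts too. Among 4 other pentraxin genes (Crp, Apcs, Nptx1, Nptx2) none was called in any comparison, and 1 of the 12 tests had an unadjusted p under 0.05. Over all genes 19.5% were called between the fibroblasts, 21.4% between the embryonic groups and 35.6% between adult fibroblasts and cardiomyocytes. With 4 genes, little can be read from counts of none. Crp (5.98) and Apcs (5.74 in adult fibroblasts, as for Crp) lay below 6.909, the 30th percentile of probe means.

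**Figure D4:**
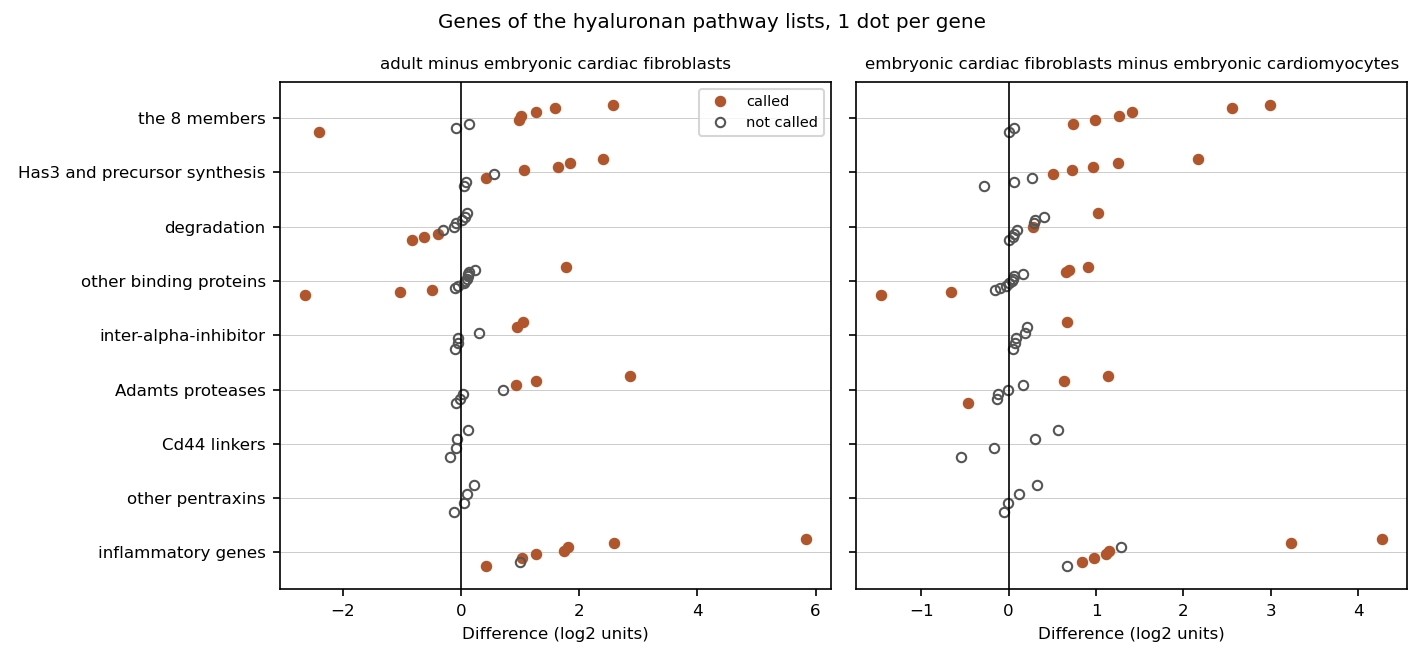
Differences (log2 units, x axis) of every measured gene of the hyaluronan lists, for adult minus embryonic fibroblasts (left) and embryonic fibroblasts minus cardiomyocytes (right); filled dots passed the adjusted p threshold of 0.05 and open dots did not. Precursor synthesis and inflammatory genes had no called gene below 0 in either panel, and the degrading enzymes had no called gene above 0 in adult against embryonic fibroblasts.

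The inflammatory and cell type lists are given beside the members, and their part in the members' differences was not tested. The 8 inflammatory inducers and feedback genes were Il1a, Il1b, Tnf, Il6, Ptgs2, Nfkbia, Nfkbiz and Tnfaip3. Of these, 7 were higher in adult than in embryonic fibroblasts and 6 in embryonic fibroblasts than in cardiomyocytes, against 8.34% and 10.3% of all genes, with 0 lower in either. Between the fibroblasts the differences ran from 0.43 for Nfkbiz to 5.84 for Il6, and Il1a was not called (adjusted p = 0.119). Between the embryonic groups they ran from 0.67 for Tnf to 4.28 for Ptgs2, and Tnf and Il6 were not called. The mean RMA value of the 8 was 10.82 to 11.16 on the adult fibroblast arrays, 8.65 to 9.375 on the embryonic fibroblast arrays and 7.18 to 7.43 on the cardiomyocyte arrays. This was the order of Has1, Has2, Tnfaip6, Ptx3 and Cd44. Within the embryonic fibroblasts this mean was lowest in replicate 2, where Has2 and Ptx3 were also lowest, Cd44 was the middle array and Tnfaip6 was highest. Has1 was lowest there too, but all its values in that group lay within 8.19 to 8.23. With 3 arrays no relation can be read from this. Macrophage markers averaged 8.62 to 9.335 in adult fibroblasts, 8.03 to 8.41 in embryonic fibroblasts and 7.45 to 7.59 in cardiomyocytes, the same order of groups. The mean of the 12 fibroblast markers, given above, had this order too. Of those 12, 7 were higher and 1 lower in adult than in embryonic fibroblasts, against 8.34% and 11.2% of all genes. All 12 were higher than in cardiomyocytes both in embryonic and in adult fibroblasts, against 10.3% and 17.4%. Of the 14 macrophage markers, 5 were higher in adult than in embryonic fibroblasts, 7 in embryonic fibroblasts than in cardiomyocytes and 11 in adult fibroblasts than in cardiomyocytes, against 8.34%, 10.3% and 17.4% of all genes, with 0 lower in any. Endothelial markers averaged 8.71 to 9.77 in adult fibroblasts, 9.33 to 9.79 in embryonic fibroblasts and 8.315 to 8.70 in cardiomyocytes. Of these 12, 1 was higher and 2 lower in adult than in embryonic fibroblasts, near the 8.34% and 11.2% of all genes. In embryonic fibroblasts against cardiomyocytes 10 were higher and 0 lower, against 10.3% and 11.1%.

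The lists with their highest mean in embryonic fibroblasts are set beside Hapln1 here. They were picked by their means in these same data, so that shared high point was fixed by the choice. Any part of these cell types in the differences of Hapln1 was not tested. The endothelial list given above is among these lists. Its adult and embryonic fibroblast arrays overlapped, and it was lowest in cardiomyocytes, where Hapln1 was lowest in adult fibroblasts. The mean of the mesothelial and epicardial markers had the same order of groups as Hapln1, at 7.56 to 7.68 in adult fibroblasts, 8.27 to 8.455 in embryonic fibroblasts and 7.79 to 7.84 in cardiomyocytes. Of these 12, 0 were higher and 8 lower in adult than in embryonic fibroblasts, against 8.34% and 11.2% of all genes, and 5 were higher and 0 lower in embryonic fibroblasts than in cardiomyocytes, against 10.3% and 11.1%. In adult fibroblasts against cardiomyocytes 1 was higher (Aldh1a2, 1.38) and 4 were lower, against 17.4% and 18.2%, with a median of -0.19. The lower place of the adult mean thus rests on part of the list. The mean of 8 endocardium and cushion markers was 8.12 to 8.36 in adult fibroblasts, 8.995 to 9.07 in embryonic fibroblasts and 8.34 to 8.35 in cardiomyocytes. Of these 8, 0 were higher and 2 lower in adult than in embryonic fibroblasts, against 8.34% and 11.2% of all genes, with a median of -0.15. The lower ones were Npr3 (-3.41) and Cdh11 (-2.39), which carry most of the shift in the mean. In adult fibroblasts against cardiomyocytes, where Hapln1 was lower, Npr3 and Cdh11 were lower and Nfatc1 and Sox9 were higher. Smooth muscle and pericyte markers averaged 8.215 to 8.71 in adult fibroblasts, 8.95 to 9.02 in embryonic fibroblasts and 9.08 to 9.21 in cardiomyocytes, an order that no called member had. Of these 12, 2 were higher and 5 lower in adult than in embryonic fibroblasts, against 8.34% and 11.2% of all genes. Among them were Rgs5 (2.29) and Acta2 (-2.59). In embryonic fibroblasts against cardiomyocytes 2 were higher and 3 lower, against 10.3% and 11.1%.

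The genes nearest to each member were found by the root mean square difference of their values over the 9 arrays, each gene first centred on its own mean. This is a description of likeness over 9 arrays in 3 groups and has no test. Nearest to Has1 were Fbln5 (0.13 log2 units), an elastic fibre protein gene, Serpinf1 (0.15) and Slc11a2 (0.16). Nearest to Has2 were Tfpi2 (0.15), Fmnl2 (0.16) and the innate immune receptor gene Tlr2 (0.16). For Ptx3 they were Pde1a (0.16), Itpripl2 (0.23) and Myc (0.23), and for Cd44 they were Letm2 (0.08), Heatr1 (0.09) and Rarres2 (0.11). Tnfaip6 had no close match, since Anxa1 (0.47), Slc7a11 (0.49) and the precursor enzyme gene Gfpt2 (0.50) were the nearest. Hapln1 lay nearest to Cdh11 (0.18), the mesenchymal cadherin, which is also on the endocardium and cushion list, to Fn1 (0.18), fibronectin, and to Clca3a2 (0.19). Cdh11 measured 8.71, 8.80 and 9.46 in adult fibroblasts, 11.28, 11.52 and 11.35 in embryonic fibroblasts, and 10.05, 9.75 and 9.81 in cardiomyocytes. Fn1 measured 10.31, 10.37 and 10.33 in adult fibroblasts, 12.64, 12.74 and 12.35 in embryonic fibroblasts, and 11.28, 11.03 and 11.02 in cardiomyocytes. For Vcan (Susd2, Mesp1 and Olfr376) and Hyal2 (Tpbpa, Slc45a4 and Mettl27) the nearest genes were others with little variation. Among the members themselves the closest pair was Vcan and Hyal2 (0.14), followed by Has1 and Cd44 (0.24), and the most distant was Tnfaip6 and Hapln1 (2.80).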

How the data were processed

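Total RNA was extracted with Trizol and labelled with biotin, per the labels' protocols. The authors deposited RMA values, per the submitters' processing notes, with no version, genome build or annotation given in the sources used here. The log base is not stated, and the deposited values (2.70 to 14.20) were read as log2. RMA adjusts for background and compresses differences of dim genes.

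Of 28767 probes, 21776 had a single gene symbol in the platform annotation, 1618 had several and 5373 had none, and the last 2 kinds were not used. Symbols were checked by Entrez identifier against RefSeq (GRCm38.p6). Each gene kept its probe with the highest mean, giving 19933 genes. One limma model (version 3.58.1, R 4.3.3) covered all 9 arrays (lmFit, eBayes; group means; two-sided; adjustment by Benjamini-Hochberg over all genes; no dim filter). The fit was tested on simulated data. Groups and replicates came from the titles, and 3 arrays a group limit the precision. Depth has no counterpart on arrays.

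The members, 8 pathway lists and 7 marker lists were chosen with earlier results of these data known. The rule for naming covered all members, the 3 genes nearest each member, and markers checking the labels. It also covered up to 4 called pathway genes per list and comparison that differed by at least 1 log2 unit. Not every gene under this rule is named with its values. Of the planned label markers, Col1a1, Pdgfra, Pecam1 and Csf1r are counted only within their lists. Further list genes were named after their values were seen. A search of protein sequences for the Link module was planned and not run.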

Additional observations from a re-analysis of the deposited data

How the results depend on the processing

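Each result was recomputed under 19 alternatives, 9 of which left out 1 array. Of 456 recomputed member differences, 450 kept their direction and their side of the threshold, and all 114 recomputed counts of called members stayed within 1.5 times the reported count. The exceptions were Has1 without cardiomyocyte replicate 1 or 3 and Vcan without adult replicate 2, described above, and Hyal2 in embryonic fibroblasts against cardiomyocytes. Hyal2 changed sign at -0.0087 with arrays centred on their median, -0.0054 after quantile normalization and -0.0063 without embryonic fibroblast replicate 1, against 0.0122 without replicate 2, the highest value with 1 array left out, and was called in none. Counts over all genes moved with array weights, to 3103 higher and 3362 lower in embryonic fibroblasts against cardiomyocytes and 2519 higher in adult against embryonic fibroblasts. Reported were 2054, 2212 and 1662. Without embryonic fibroblast replicate 2 the lower count in embryonic fibroblasts against cardiomyocytes was 1452, within 1452 to 2830 when each array was left out. The causes were not tested. With the replicate number as a block, 6 members were higher in embryonic fibroblasts than in cardiomyocytes, 5 were higher and 1 lower in adult than in embryonic fibroblasts, as reported, and no member's call changed. Over all genes the block gave 2059 higher and 2147 lower in embryonic fibroblasts against cardiomyocytes. Same-numbered arrays did not deviate together (r from -0.195 to 0.198, and the own number was the best match in 6 of 18 cases), so the numbers were not taken as pairs. Centring or quantile normalization moved the median of all genes by less than 0.1 log2 units. RMA values hold no measure of signal over background per probe, which limits what can be said of Hyal2, Has3 and other genes that did not differ.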
